A study of Mus musculus with 6 samples.

Results

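Itaconate is made inside mitochondria by Acod1, which decarboxylates cis-aconitate, an intermediate of the tricarboxylic acid (TCA) cycle. The cycle itself runs from citrate synthase through isocitrate, 2-oxoglutarate, succinyl-CoA, succinate, fumarate and malate back to oxaloacetate. In activated macrophages, itaconate inhibits succinate dehydrogenase, and the isocitrate dehydrogenase step is known as a point where flow through the cycle can be diverted. Acod1 is best known as a gene that myeloid cells switch on in response to microbial ligands and interferons.

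The set held Acod1 and 8 enzymes of, or parallel to, the cycle: Cs, Idh1, Idh2, Idh3a, Ogdh, Suclg1, Fh1 and Mdh2. They were taken by gene symbol, with earlier results of these data known, and each symbol matched a single row, giving 9 of the 54532 genes listed. All 9 were among the 13441 genes tested, for which 3 or more libraries had to reach 1 FPKM (fragments per kilobase of gene and unit of sequencing depth). RNA was sequenced from mouse bone marrow-derived macrophages (BMDMs) after co-culture with ID8, a mouse ovarian cancer cell line. Before the co-culture, ID8 had met 40 µM cisplatin, the DNA-crosslinking platinum agent, in 3 libraries (called cisplatin), or phosphate-buffered saline in the other 3 (called PBS). The methods describe marrow monocytes of C57BL/6 mice aged 6 to 8 weeks, grown in RPMI medium with serum, and no treatment of the macrophages apart from the co-culture. The comparison asks how macrophages respond to tumour cells that have met the drug. No step that separates macrophages from ID8 cells is described. The methods mention biological replicates for the differential expression comparison, without saying what they were. The labels do not say whether the 3 libraries of a group came from separate cultures or mice. The p-values therefore measure the spread between these libraries, which may be technical.

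The macrophage label was checked against 13 markers, of which 12 were tested. Of all 13441 genes tested, 68.0% passed the test, 32.9% higher and 35.1% lower. All 12 markers passed the test higher in the cisplatin libraries, led by Mrc1 (log2 difference 2.82) and Lyz2 (1.57), and the summed FPKM of the 13 was 4560 to 4738 there against 1815 to 1837 in the PBS libraries. Of 18 ID8 and mesothelial markers, 12 were tested and all 12 passed lower, with summed FPKM of 265 to 283 against 1394 to 1491. Krt19, a keratin of epithelial cells, fell from 554 to 605 FPKM in the PBS libraries to between 46.8 and 54.0. Gpm6a, a membrane glycoprotein, fell by 3.20 on the log2 scale. None of the 18 was at 0 in every library. Neutrophil and progenitor markers (11 of 12 tested passed, all higher, with a summed FPKM of 9185 to 9455 against 4841 to 5006) and lymphocyte markers, mostly of B cells (6 of 6 tested passed, all higher, 441 to 453 against 195 to 202), moved the same way as the macrophage markers. The most changed of these were Mpo (log2 difference 2.63) and Prtn3 (2.499), proteins of neutrophil granules, and the B-cell genes Ms4a1 (1.58) and Cd79a (1.19). When libraries were scaled by 4 Y-linked genes, the markers that passed were 5 higher and 3 lower for macrophages, 9 and 2 for neutrophils and progenitors, and 2 and 2 for lymphocytes, while all 12 tested ID8 and mesothelial markers stayed lower. Of all genes tested, 3.71% passed higher and 82.6% lower under that scaling. Of 4 dendritic cell markers tested 3 passed higher, among them Siglech (1.99) and Flt3 (1.02), and 1 lower, and 0 of 4 erythroid markers passed by limma, with 0 at an unadjusted p below 0.05 as well. Of the erythroid markers, 1 passed higher under voom, quantile normalisation and scaling by recovered reads, and 3 passed lower under scaling by Y-linked genes. The macrophage, ID8, neutrophil and lymphocyte markers thus moved with the groups as deposited, in bulk RNA fewer cells of a type and less RNA per cell cannot be told apart, and their part in the values of the enzymes was not tested.

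The promoters of Acod1, Idh1 and Idh2 are shown because Acod1 had level values while many genes of macrophage activation did not, and because the isocitrate dehydrogenases Idh1 and Idh2 moved apart. Each run is the 250 bases before the RefSeq start (GRCm38.p6), read 5′ to 3′ on the gene's strand. The starts used by RefSeq lie slightly downstream of those in the deposited table. In Acod1 (chr14:103046762-103047011, + strand), capitals mark GGAANTTCC, a site form bound by NF-kB, and AANNGAAA, the core bound by interferon regulatory factors. In Idh1 (chr1:65186480-65186729, - strand) and Idh2 (chr7:80115351-80115600, - strand), capitals mark CCAAT and the GC box GGGCGG on either strand.
Acod1: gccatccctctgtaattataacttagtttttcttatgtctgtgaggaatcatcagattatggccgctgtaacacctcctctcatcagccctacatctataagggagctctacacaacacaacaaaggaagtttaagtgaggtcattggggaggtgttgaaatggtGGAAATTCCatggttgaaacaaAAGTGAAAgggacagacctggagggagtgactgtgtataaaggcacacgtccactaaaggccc
Idh1: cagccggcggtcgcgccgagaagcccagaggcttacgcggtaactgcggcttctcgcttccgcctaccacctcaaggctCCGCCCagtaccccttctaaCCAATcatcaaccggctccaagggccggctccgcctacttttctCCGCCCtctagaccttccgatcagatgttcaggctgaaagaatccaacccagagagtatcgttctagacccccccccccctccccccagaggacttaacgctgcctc
Idh2: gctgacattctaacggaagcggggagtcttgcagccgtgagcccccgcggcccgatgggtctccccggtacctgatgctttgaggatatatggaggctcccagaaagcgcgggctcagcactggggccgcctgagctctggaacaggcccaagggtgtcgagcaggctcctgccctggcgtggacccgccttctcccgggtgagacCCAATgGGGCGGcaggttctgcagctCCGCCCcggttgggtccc

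Among 32851 RefSeq promoter windows of this length, both strands searched, GGAANTTCC was found in 0.813% and AANNGAAA in 21.3%. A promoter was found in the RefSeq table for 8 of the 9 members, all but Idh3a. Among these 8, the NF-kB form was found in Acod1, 85 bases before the start, and in no other member, and the interferon regulatory factor core in Acod1, 63 bases before the start, and in Cs. CCAAT was found in 6 of the 8 members and in 33.8% of all windows, and the GC box in 6 of the 8 and in 32.7%. Idh1 and Idh2 held the same pair of forms, 1 CCAAT and 2 GC boxes each: CCAAT stood 151 bases before the start in Idh1 and 44 in Idh2, and the GC boxes 171 and 107 bases before it in Idh1 and 38 and 18 in Idh2. Of the other forms searched, TTCNNNGAA (7.02% of windows), CACGTG (6.02%), TGACNNNGC (10.2%) and CCGGAAG (6.91%) were in none of the 8 windows, and TGACGTCA (1.55%) was in those of Ogdh and Mdh2. These matches are descriptions of the letters only.

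Acod1 was the most abundant of the 9, and its difference between the groups did not pass the test. Its levels were 252, 266 and 245 FPKM in the PBS libraries and 259, 254 and 253 FPKM in the cisplatin libraries. The cisplatin values lay inside the range of the PBS values. The mean was 254 ± 10.8 FPKM with PBS and 255 ± 3.04 FPKM with cisplatin (SD, n = 3), and the log2 difference, cisplatin minus PBS on the scale of log2(FPKM + 1) as everywhere below, was 0.01 (95% interval -0.09 to 0.10; limma, Benjamini-Hochberg adjusted p = 0.891). The library FPKM of Acod1 had a coefficient of variation of 2.80% over all 6 libraries and 9953 to 11697 reads stood behind each value. By mean FPKM the gene was 102nd of the genes tested (chr14:103046977-103056573, + strand). Scaled by the total of recovered reads the difference was 0.09 and did not pass (limma adjusted p = 0.0652). Under voom, limma's test on read counts, run on reads recovered from the FPKM values, the difference was 0.09 and passed (adjusted p = 0.031). Scaled by Y-linked genes it was -0.99 and passed (limma adjusted p = 1.11e-06), with the median of all genes at -0.83.

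**Figure D1:**
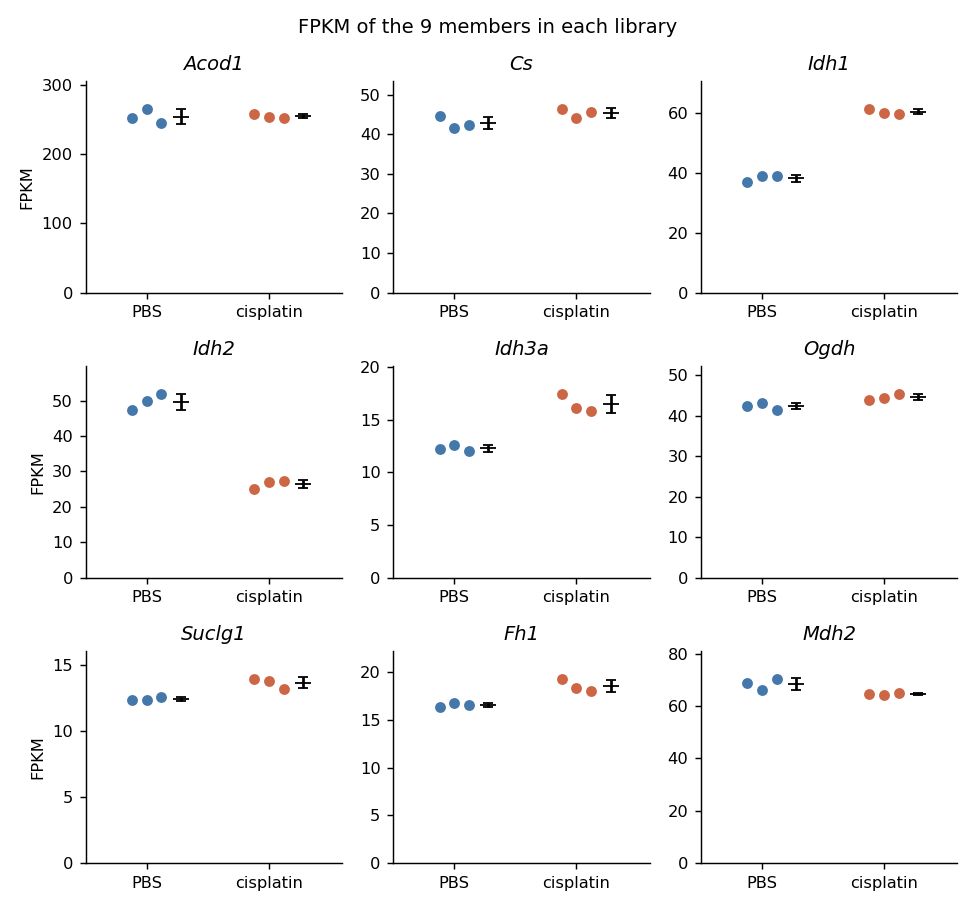
FPKM of each of the 9 genes in each library (points; 3 PBS libraries in blue, 3 cisplatin libraries in orange), with the mean and SD of each group in black and every axis starting at 0. Idh1 sat at 36.8 to 39.0 FPKM with PBS and 59.7 to 61.4 with cisplatin, Idh2 at 47.2 to 51.9 and 25.01 to 27.3, and the Acod1 points of both groups lay between 245 and 266.

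The level Acod1 values stood beside differences, some of them large, in genes of macrophage activation and the interferon response. The list also holds receptors and signalling genes of these responses. Of the 23 genes listed, 20 were tested: 8 passed higher, 11 lower and 1 did not pass, with a median log2 difference of -0.48 against -0.00 over all genes tested. That is 19 of 20 past the test, beside 68.0% of all genes tested (32.9% higher and 35.1% lower). Nos2, the inducible nitric oxide synthase, fell from 126, 129 and 129 FPKM in the PBS libraries to 3.12, 2.86 and 2.32 in the cisplatin libraries (log2 difference -5.11, SE 0.08, limma adjusted p = 5.39e-08). Cxcl10, a chemokine induced by interferon, fell from between 57.1 and 59.6 FPKM to between 4.27 and 5.12 (log2 difference -3.41, adjusted p = 7.29e-08 by limma). The ratio of Acod1 to Nos2 was 1.89 to 2.06 in the PBS libraries and 82.9 to 109 in the cisplatin libraries. Relative to macrophage markers the ratio went the other way, from between 2.40 and 2.55 to between 1.31 and 1.38 for Acod1 to Adgre1 and from between 0.209 and 0.230 to between 0.0716 and 0.0760 for Acod1 to Lyz2. These 3 ratios were chosen after the values were seen.

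The remaining genes of the list divided by direction, as the plot of activation genes shows. The following were chosen after their values were seen. The interferon-response regulators Irf7 (log2 difference -2.59), Stat2 (-1.92) and Irf1 (-1.29) passed lower, whereas Irf8 (0.48), an interferon regulatory factor of myeloid cells, passed higher. Ptgs2 (-1.15), the inducible cyclooxygenase, and Rela (-0.20), a subunit of NF-kB, passed lower. Nfkb1 (0.28), another subunit of NF-kB, passed higher. The cytokines Il1b (0.62), Tnf (0.30) and Il6 (0.25) passed higher, with Il1b at 188 to 200 FPKM with cisplatin and 119 to 130 with PBS. Tlr4, the receptor for lipopolysaccharide, did not pass (log2 difference -0.02, limma adjusted p = 0.765). When libraries were scaled by 4 Y-linked genes, 7 of the 8 genes that had passed higher passed lower, and Cd40 did not pass. Of all genes tested, 82.6% passed lower and 3.71% higher under that scaling.

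**Figure D2:**
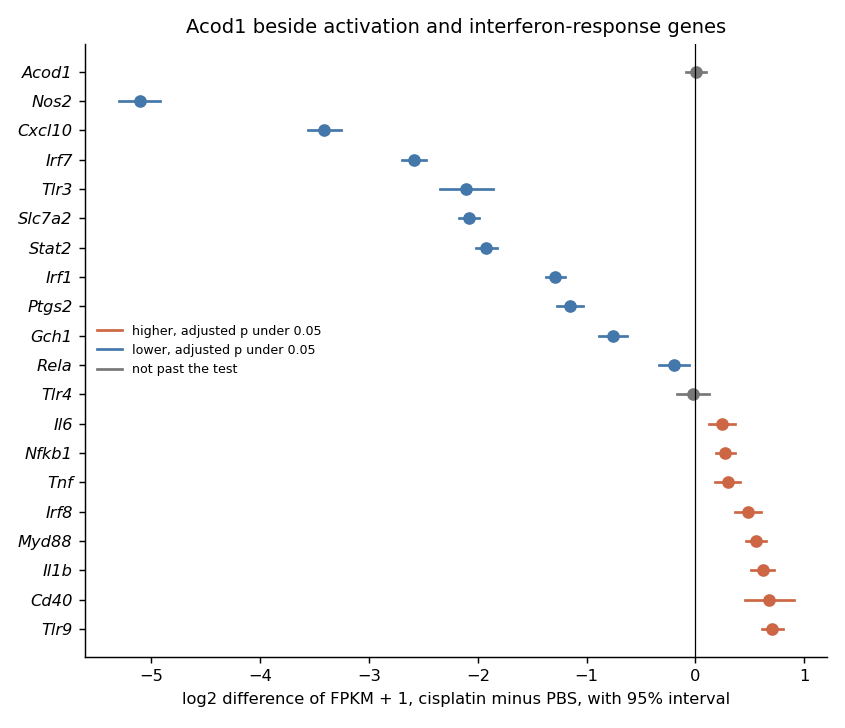
Log2 difference (cisplatin minus PBS, FPKM as deposited) with its 95% interval for Acod1 and 19 of the 20 tested activation and interferon-response genes; orange, higher and blue, lower at an adjusted p below 0.05, grey, not past the test. Acod1 lay at 0.01, between Nos2 at -5.11 and Tlr9 at 0.71. Scaled by Y-linked genes, no gene of the list passed higher, beside 3.71% of all genes tested.

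Of 8 genes for the breakdown, transport and sensing of itaconate or the response to it, 6 were tested and Sugct and Oxgr1 were not. Of the 6, 5 passed lower and 1 higher, with a median log2 difference of -0.34, where 68.0% of all genes tested passed in either direction. Scaled by Y-linked genes, all 6 passed lower, beside 82.6% of all genes tested. Clybl, the citramalyl-CoA lyase that acts late in itaconate breakdown, fell from 18.3, 16.9 and 18.3 FPKM with PBS to 1.995, 1.48 and 1.89 with cisplatin (log2 difference -2.76, limma adjusted p = 3.77e-07). Abcg2, an exporter reported to carry itaconate, fell by 0.69 on the log2 scale. Oxgr1, a receptor for itaconate, was at 0.17 FPKM or less in every library.

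The genes nearest Acod1 in profile were also level, which the measure used fixes in advance for a level gene. By the root-mean-square difference of centred log2(FPKM + 1) values over the 6 libraries, the 5 closest of 13440 other genes were Wsb1 (0.012), Abcc1 (0.015), Cep295 (0.016), Sdhd (0.017) and Scamp2 (0.017). Sdhd, a membrane anchor of succinate dehydrogenase, is itself a subunit of the cycle. Of the 13440, 1984 lay within 0.1 of Acod1 on this measure, so closeness of this kind was common.

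Across the 9 members, 4 passed the test higher with cisplatin (Idh1, Idh3a, Suclg1 and Fh1), 1 lower (Idh2), and 4 did not pass (Acod1, Cs, Ogdh and Mdh2). That is 55.6% of the members at an adjusted p below 0.05, beside 68.0% of all genes tested, of which 32.9% were higher and 35.1% lower. By limma, none of the 9 was also changed by at least 2-fold, the study's further threshold, nor was any at an unadjusted p below 0.05 or under voom, whereas 15.9% of all genes tested met both. The groups did not overlap for 7 of the 9 (77.8%), all but Acod1 and Cs, beside 72.4% of all genes tested. The median log2 difference of the members was 0.08. Scaled by Y-linked genes, which lowered the median over all genes by 0.83 on the log2 scale, 0 members passed higher and 9 lower, beside 82.6% of all genes tested lower. Voom on recovered reads gave 7 higher and 1 lower, a count without the share of all genes past the test beside it. With the 2-fold threshold added, 1227 of all genes tested were higher and 1862 lower under voom, against 628 and 1514 by limma.

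The clearest pattern was at the isocitrate dehydrogenases, which convert isocitrate to 2-oxoglutarate. Idh1, the cytosolic enzyme that uses NADP, was higher in every cisplatin library, and Idh2, its NADP-dependent counterpart in mitochondria, was lower in every one. Idh1 (chr1:65158616-65186500, - strand) was at 36.8, 39.0 and 38.8 FPKM with PBS and at 61.4, 60.0 and 59.7 FPKM with cisplatin, 1.58-fold higher by the means. Idh2 (chr7:80094846-80115392, - strand) was at 47.2, 49.8 and 51.9 FPKM with PBS and at 25.01, 27.0 and 27.3 FPKM with cisplatin, 1.88-fold lower by the means. For both genes the gap between groups was many times the spread within them. The log2 difference was 0.65 for Idh1 (SE 0.04, 95% interval 0.56 to 0.73, limma adjusted p = 6.4e-06). It was -0.88 for Idh2 (SE 0.05, 95% interval -1.01 to -0.76, limma adjusted p = 7.79e-06).

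The exchange is seen within each library, where the scaling cancels. The FPKM ratio of Idh1 to Idh2 was 0.779, 0.783 and 0.748 in the PBS libraries and 2.45, 2.22 and 2.19 in the cisplatin libraries, a 2.97-fold higher mean. Idh2 was therefore the more abundant of the pair with PBS and Idh1 with cisplatin, in 3 of 3 libraries each. A two-sided exact permutation test over the 6 libraries gave p = 0.1, the smallest this design allows, and p = 0.14 adjusted over the 7 ratios in the plot of ratios (7 others were computed later and were not adjusted for). The longest exact run shared by the principal Idh1 and Idh2 transcripts in GENCODE M21 was 19 bases. Scaled by Y-linked genes, the log2 difference of Idh1 turned to -0.33 and that of Idh2 went to -1.85. Relative to the median of all genes under that scaling they were 0.50 and -1.02. Against a single marker of each cell type, ratios chosen after the values were seen, both genes went the other way. Idh1 to Adgre1, a macrophage gene, went from between 0.357 and 0.381 with PBS to between 0.310 and 0.327 with cisplatin. Idh2 to Krt8, an epithelial keratin, went from between 0.303 and 0.353 to between 1.07 and 1.12. Not every marker gave this, as values looked up later show. Among tested macrophage markers, Cd68 alone (log2 difference 0.20) rose by less than Idh1. Among tested ID8 and mesothelial markers, Msln (-0.70) and Col1a1 (-0.47) fell by less than Idh2, and the rest by more.

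The NAD-dependent enzyme of the cycle is built from Idh3a, its catalytic subunit, with Idh3b and Idh3g. Idh3a (chr9:54586334-54604661, + strand) was at 12.2, 12.6 and 11.99 FPKM with PBS and at 17.4, 16.1 and 15.8 FPKM with cisplatin. The groups stood apart, and Idh3a rose by 0.40 on the log2 scale (SE 0.05, 95% interval 0.28 to 0.51, limma adjusted p = 0.000349). The sign turned only when libraries were scaled by Y-linked genes (-0.54). Idh3b rose from between 20.9 and 23.3 FPKM to between 26.0 and 28.9 (log2 difference 0.30, limma adjusted p = 0.00292). Idh3g was lower, at 25.8 to 28.2 FPKM against 29.1 to 30.1 (log2 difference -0.13, limma adjusted p = 0.0271), and no longer passed under 5 of the alternatives that keep every library, among them voom (adjusted p = 0.41), or without cisplatin replicate 1 or 2 or PBS replicate 2 or 3 (adjusted p of 0.0637 to 0.0751). The ratio of Idh3a to Idh3g was 0.399 to 0.420 with PBS and 0.562 to 0.676 with cisplatin (exact permutation p = 0.1), whereas that of Idh3a to Idh3b overlapped between the groups (0.524 to 0.575 and 0.557 to 0.671; exact permutation p = 0.4). Idh3b overlaps Nop56 on the opposite strand, and Nop56 was at 19.3 to 21.1 FPKM with PBS and 42.3 to 44.0 with cisplatin.

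**Figure D3:**
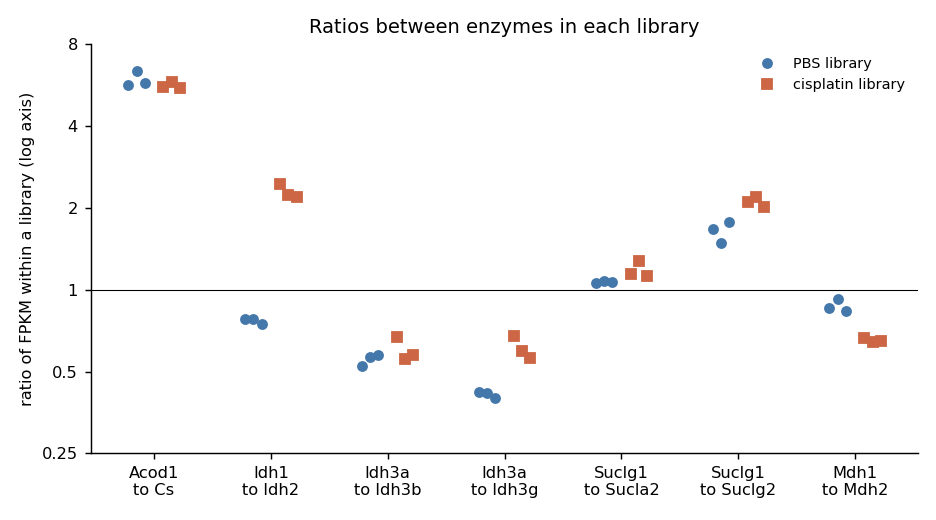
FPKM ratio of 7 pairs of enzymes within each library, on a log axis; blue circles, PBS libraries, and orange squares, cisplatin libraries. The groups stood apart for 5 of the 7 ratios, most widely for Idh1 to Idh2 (0.748 to 0.783 against 2.19 to 2.45), and overlapped for Acod1 to Cs and Idh3a to Idh3b.

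At the entry to the cycle, Cs, the citrate synthase that joins acetyl-CoA to oxaloacetate, was at 44.6, 41.7 and 42.4 FPKM with PBS and at 46.5, 44.0 and 45.7 FPKM with cisplatin (chr10:128337734-128362479, + strand). The groups overlapped, and the log2 difference of 0.08 did not pass (95% interval -0.02 to 0.18, limma adjusted p = 0.117). Relative to Cs, Acod1 was at 5.65, 6.38 and 5.77 in the PBS libraries and at 5.57, 5.78 and 5.53 in the cisplatin libraries (two-sided exact permutation p = 0.3).

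Ogdh, the decarboxylating subunit of the 2-oxoglutarate dehydrogenase complex, was at 42.4, 43.1 and 41.5 FPKM with PBS and at 44.0, 44.5 and 45.4 FPKM with cisplatin (chr11:6291633-6356642, + strand). Every cisplatin value was above every PBS value, yet the log2 difference of 0.07 did not pass (95% interval -0.00 to 0.15, limma adjusted p = 0.0854). Its partner subunits did: Dlst, the succinyltransferase core, rose by 0.35 on the log2 scale (14.6 to 15.3 FPKM against 18.6 to 19.7), and Dld, the dihydrolipoamide dehydrogenase shared with the pyruvate dehydrogenase complex, by 0.30 (25.9 to 28.4 against 32.4 to 35.2). Cs and Ogdh both passed, higher, under quantile normalisation (log2 differences 0.17 and 0.18), scaling by the total of recovered reads (0.17 and 0.16) and voom (0.17 and 0.16), so their calls rest on how the libraries were scaled.

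Suclg1, the subunit common to both forms of succinyl-CoA synthetase, was at 12.4, 12.3 and 12.6 FPKM with PBS and at 14.0, 13.8 and 13.2 FPKM with cisplatin (chr6:73248382-73276911, + strand). The groups did not overlap and the log2 difference of 0.13 passed (95% interval 0.03 to 0.22, limma adjusted p = 0.0287), but the call was lost when any single library other than cisplatin replicate 3 was left out (adjusted p of 0.0588 to 0.0873). Of its partners, Suclg2, which gives the GTP-forming enzyme, was at 7.07 to 8.30 FPKM with PBS and 6.30 to 6.63 with cisplatin (log2 difference -0.20, limma adjusted p = 0.0317). That call was lost without a filter on low values (limma adjusted p = 0.123), after quantile normalisation (0.291) and when scaled by recovered reads (0.136). It was also lost with a replicate block (limma adjusted p = 0.0717), under voom (0.135) and without any single library but PBS replicate 3 (limma, 0.055 to 0.0928). Sucla2, which gives the ATP-forming enzyme, was at 11.4 to 11.8 FPKM and 10.8 to 12.3 FPKM and did not pass (log2 difference -0.00, limma adjusted p = 0.975). The ratio of Suclg1 to Suclg2 was 1.49 to 1.78 with PBS and 2.01 to 2.20 with cisplatin, and that to Sucla2 was 1.06 to 1.08 and 1.12 to 1.27 (exact permutation p = 0.1 for each).

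Succinate dehydrogenase, the enzyme that itaconate inhibits, has no subunit among the 9 members. Its catalytic subunits rose, Sdha by 0.15 on the log2 scale (49.8 to 52.1 FPKM against 54.5 to 57.6) and Sdhb, the iron-sulphur subunit, by 0.34 (23.5 to 24.4 against 30.1 to 31.0). Of the membrane anchors, Sdhc fell by 0.32 (28.5 to 29.1 FPKM against 22.6 to 23.2), and Sdhd, at 71.1 to 75.1 and 71.6 to 73.1 FPKM, did not pass (log2 difference -0.01, limma adjusted p = 0.903). The assembly factors Sdhaf1, Sdhaf2 and Sdhaf4 fell by 0.44, 0.26 and 0.71 on the log2 scale, with Sdhaf1 at 1.70 FPKM or less throughout. The call for Sdhaf1 was lost without a filter on low values (limma adjusted p = 0.0718) and after quantile normalisation (0.0663).

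Fh1, the fumarase, was at 16.4, 16.8 and 16.5 FPKM with PBS and at 19.3, 18.4 and 18.0 FPKM with cisplatin (chr1:175600374-175625635, - strand). The groups stood apart, and Fh1 rose by 0.16 on the log2 scale (95% interval 0.06 to 0.25, limma adjusted p = 0.0123). Its row overlaps that of Kmo on the opposite strand. Kmo rose from between 1.495 and 1.67 FPKM to between 5.03 and 6.20, and since it is not stated whether reads were counted by strand, the share of the difference in Fh1 that comes from Kmo was not tested. Mdh2, the mitochondrial malate dehydrogenase that closes the cycle, was at 68.8, 66.1 and 70.4 FPKM with PBS and at 64.7, 64.1 and 65.1 FPKM with cisplatin (chr5:135778480-135790398, + strand). Every cisplatin value was below every PBS value, but the log2 difference of -0.08 did not pass (95% interval -0.16 to 0.00, limma adjusted p = 0.078). It passed without PBS replicate 2 (-0.10, adjusted p = 0.0335) and was 0.01 under voom.

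**Figure D4:**
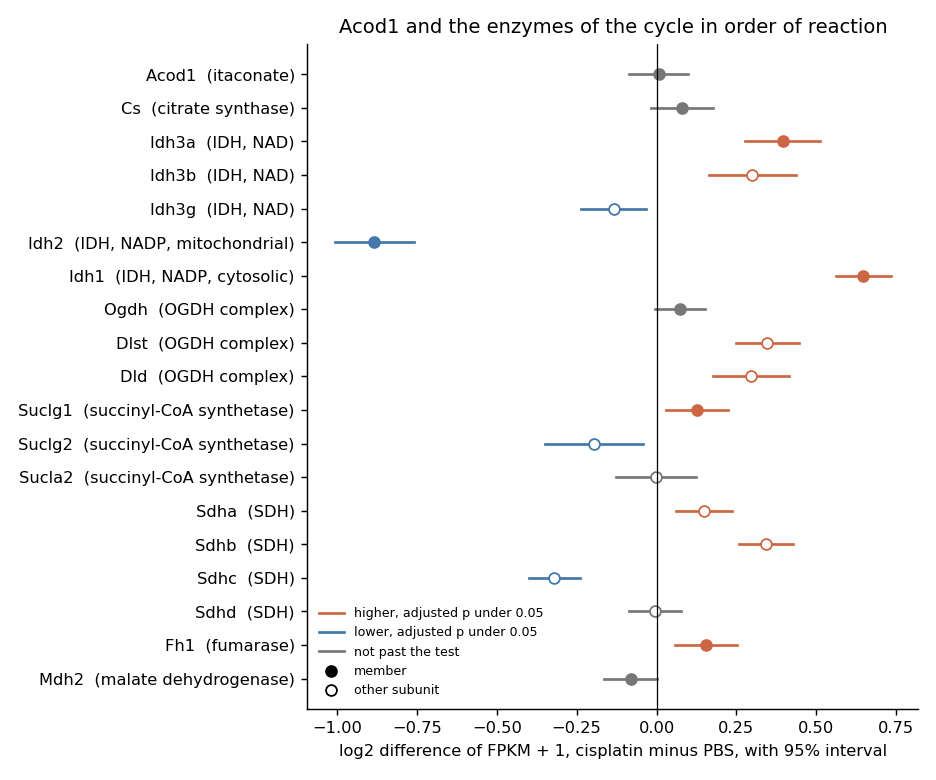
Log2 difference (cisplatin minus PBS, FPKM as deposited) with its 95% interval for Acod1 and enzymes of the cycle in order of reaction; filled points, the 9 members, open points, other subunits, with orange for higher and blue for lower at an adjusted p below 0.05 and grey for not past the test. Of the genes drawn, which leave out assembly factors, Idh2 at -0.88 and Idh1 at 0.65 lay farthest from 0, and subunits of the same complex lay on both sides; scaled by Y-linked genes, every gene shown was lower.

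The 14 other subunits are counted with the assembly factors Sdhaf1, Sdhaf2 and Sdhaf4, which all passed lower and lay below the median of the list. Taking the 14 together, 5 passed higher, 7 lower and 2 did not pass, with a median log2 difference of -0.07, and 0 of the 14 were changed by at least 2-fold by limma, at an adjusted or an unadjusted p below 0.05, or by voom. At an adjusted p below 0.05 this was 85.7% of the list, beside 68.0% of all genes tested. Scaled by Y-linked genes, all 14 passed lower, 6 of them by at least 2-fold, beside 82.6% and 38.5% of all genes tested; by the total of recovered reads, 5 passed higher and 5 lower.

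Larger differences lay in enzymes that feed or drain the cycle. Me1, the cytosolic malic enzyme that makes NADPH from malate, fell from 174, 183 and 177 FPKM with PBS to 26.8, 26.3 and 27.2 with cisplatin (log2 difference -2.69, limma adjusted p = 3.21e-08), and Me2, its mitochondrial counterpart, from between 129 and 137 to between 39.0 and 39.9 (-1.74, adjusted p = 1.04e-07). Of the cytosolic counterparts, 4 of 5 passed lower and 1 higher, beside 35.1% and 32.9% of all genes tested. Got1, the aspartate aminotransferase, fell from between 46.6 and 49.96 FPKM to between 24.7 and 25.3. Mdh1, the cytosolic malate dehydrogenase, passed lower too (log2 difference -0.50), and its ratio to Mdh2 went from between 0.835 and 0.926 to between 0.643 and 0.663 (exact permutation p = 0.1). The gene that passed higher was Acly, the ATP citrate lyase (log2 difference 0.50), named after its value was seen. Acly and Idh1 were both lower when libraries were scaled by Y-linked genes.

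Of 13 genes for pyruvate entry, 4 passed higher, 7 lower and 2 did not pass, with a median log2 difference of -0.39. Without a filter on low values 1 passed higher and 7 lower. Pdk1, a kinase that switches off pyruvate dehydrogenase, fell from between 36.0 and 37.1 FPKM to between 4.58 and 5.31 (-2.66, limma adjusted p = 9.22e-08), and Pdk4, a kinase of the same family, from between 12.8 and 13.7 to between 3.35 and 4.25 (-1.62). Among 17 genes for anaplerosis and mitochondrial carriers, 5 passed higher, 10 lower and 2 did not pass, with a median of -0.31. Beside Me2, the most changed was Slc25a13, the aspartate and glutamate carrier, which fell from between 13.0 and 15.2 FPKM to between 5.48 and 7.59. Genes of mitochondrial content were mixed: of 14 tested 7 passed higher, 2 lower and 5 did not pass, with Vdac1, the outer membrane channel, lower by 1.40 on the log2 scale and Hspd1, the matrix chaperonin, higher by 1.01 (0.02 and not past the test when scaled by Y-linked genes). The shares past the test were 84.6%, 88.2% and 64.3% for the 3 lists, beside 68.0% of all genes tested. Scaled by Y-linked genes, none passed higher in any of the 3, and 12, 15 and 9 passed lower. Of all genes tested, 3.71% passed higher and 82.6% lower under that scaling.

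By FPKM within a library, Acod1 stood well above the rest in both groups, Mdh2 came next and Cs and Ogdh overlapped. FPKM divides by the deposited gene length, which exceeds the principal transcript for Idh1 (2771 against 2302 bases) and Idh2 (2588 against 1745). Other lengths were not tried, so the order of genes with near levels holds for these FPKM only. With PBS the order was Acod1, Mdh2, Idh2, Cs, Ogdh, Idh1, Fh1, Suclg1 and Idh3a by mean FPKM, from 254 to 12.3, and Suclg1 and Idh3a overlapped as well. With cisplatin it was Acod1, Mdh2, Idh1, Cs, Ogdh, Idh2, Fh1, Idh3a and Suclg1, from 255 to 13.7. All other neighbours in either order stood apart in their 3 libraries. Idh1 and Idh2 thus changed places across Cs and Ogdh.

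Scaling by Y-linked genes turned the sign of most members, as the plot of scalings shows. Under the other alternatives only Acod1 and Mdh2, both near 0, changed sign. Relative to the median of all genes under the Y-linked scaling, Idh1 (0.50), Idh3a (0.30), Fh1 (0.04) and Suclg1 (0.03) lay above and the other members below. Idh2 was lower under every alternative tried. Idh1 was higher by 0.62 to 0.75 and Idh3a by 0.36 to 0.51 under every alternative but the Y-linked one. For Acod1 the difference ran from -0.07 to 0.09 under the same alternatives, within 0.1 of 0. The Y-linked genes themselves (Ddx3y, Eif2s3y, Kdm5d and Uty) passed higher with cisplatin, with a median log2 difference of 0.70 (1.15 for Ddx3y and 0.73 for Kdm5d); ID8 derives from a female mouse and the sex of the marrow donors is not stated.

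**Figure D5:**
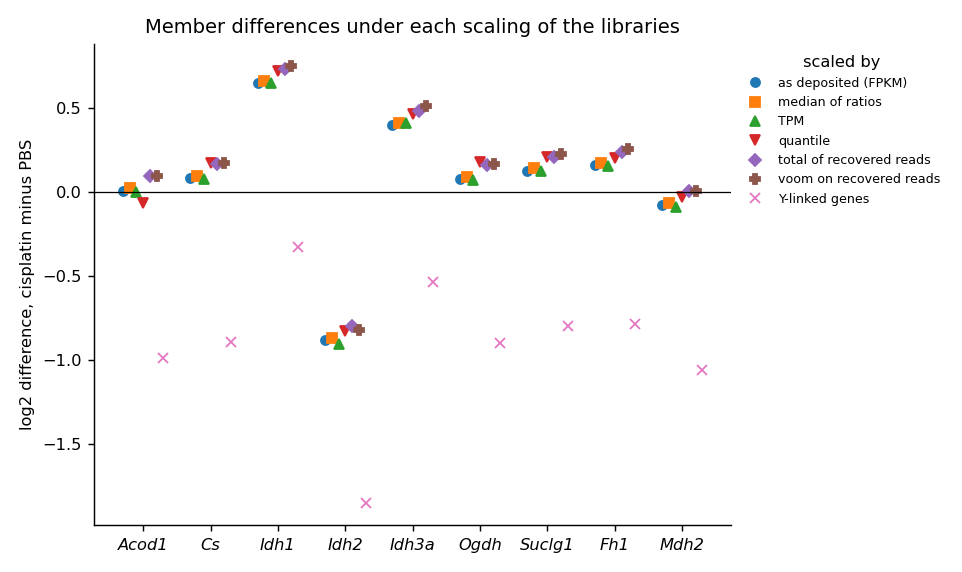
Log2 difference (cisplatin minus PBS) of each member under 7 ways of scaling the libraries, 1 symbol each. Idh2 lay below 0 throughout; Idh1, Idh3a, Suclg1 and Fh1 lay above 0 except when scaled by Y-linked genes (-0.33, -0.54, -0.80 and -0.79), and Acod1 lay within 0.1 of 0 except under that scaling (-0.99).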

How the data were processed

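Polyadenylated RNA was sequenced in 6 libraries, 3 per group, grouped by the treatment label. Per the labels, the submitters' processing notes name fastp, HISAT2 2.0.5, featureCounts 1.5.0-p3 and mm10, whereas the study's methods name LifeScope and DESeq2; which made the table, and whether counting used strand, are not given in the sources used here. The authors deposited FPKM per gene. Multiplied by gene length these were whole multiples of a step (100% of values under 200 reads lay within 0.1 of a whole read), which recovered 15776238 to 17924686 reads per library. The FPKM denominator was 97.4% to 98.7% of these totals with PBS and 103.7% to 104.1% with cisplatin, so cisplatin values are lower as deposited than when scaled by recovered reads. Coordinates are those of the table, equal to GENCODE M21 for 9 of 9 members; promoters are from RefSeq.

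Genes with at least 1 FPKM in at least 3 libraries (13441) were fitted with limma 3.58.1 in R 4.3.3 on log2(FPKM + 1), with moderated variances that follow the mean level (a trend) and no block. Benjamini-Hochberg adjustment ran over all of them; a gene passed at an adjusted p below 0.05. The pseudocount of 1 understates the change of low genes. Ratios were tested on the log2 scale with two-sided exact permutation tests. The script was tested on simulated data. Replicate numbers did not pair the libraries.

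The members and all gene lists were chosen with earlier results of these data known. Genes named were all members and other TCA cycle subunits, the 2 most changed of each other list among those past the test, the 5 genes nearest Acod1 in profile, and others said to be chosen later. Outside this rule, Mdh1 was named for its ratio, Kmo and Nop56 for their overlap with an enzyme's row, the Y-linked genes as the scaling set, and Sugct and Oxgr1 as not tested. The values of 2 genes of these lists are not reported here, though the list counts include them. Alternatives were another pseudocount, other filters, scalings and variance models, voom, a replicate block, limma's treat and leaving out each library; scaling by the total of recovered reads was chosen after seeing the data.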

Additional observations from a re-analysis of the deposited data

How the results depend on the processing

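Across 17 alternatives, all but treat, 153 values of the members were computed, of which 124 kept both their direction and their side of the threshold. Idh2 did so under all of them, and Idh1 and Idh3a under all but scaling by Y-linked genes. That scaling, which lowered the median of all genes to -0.83, gave log2 differences of -0.99 for Acod1, -0.90 for Cs, -0.33 for Idh1, -0.54 for Idh3a, -0.90 for Ogdh, -0.80 for Suclg1, -0.79 for Fh1 and -1.06 for Mdh2, all past the test, so that 0 members were higher, 9 lower and 2 called (Idh2 and Mdh2); 0 other subunits were higher and 14 lower, the medians of mitochondrial content and erythroid markers turned to -0.57 and -0.69, and 85 genes of all tested were called higher and 5181 lower, against 628 and 1514 as reported. The cause was not tested. Acod1 was at -0.00083 after TPM rescaling, -0.070 after quantile normalisation and 0.094 under voom (past the test). Cs passed at 0.17 after quantile normalisation, 0.17 when scaled by recovered reads and 0.17 under voom, and Ogdh at 0.18, 0.16 and 0.16. Mdh2 passed at -0.088 after TPM rescaling and was 0.0056 when scaled by recovered reads and 0.0054 under voom. Voom gave 7 members higher, and TPM rescaling 2 lower. Other subunits lower numbered 4 without a filter and 4 after quantile normalisation, and their median was 0.014 when scaled by recovered reads and 0.015 under voom. All genes called higher numbered 973 with a pseudocount of 0.1, 1227 under voom (1862 lower) and 240 under treat (982 lower); quantile normalisation gave 835 higher and 1290 lower. Leaving out each library in turn gave -0.020 to 0.039 for Acod1, 0.11 to 0.15 for Suclg1 and -0.10 to -0.060 for Mdh2, with 1 to 2 members lower. The replicate numbers did not pair the libraries (correlations of -0.10, -0.09 and -0.02); with the replicate block Suclg1 was 0.13 and no longer passed (limma adjusted p = 0.0854), leaving 3 members higher and 6 other subunits lower, and 625 and 1515 genes were called.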
